A study of Rattus norvegicus with 18 samples.

Results

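The integrated stress response and the unfolded protein response were followed here through 37 genes, chosen by name, of the 17455 genes listed in each deposited expression table. The choice was made with earlier results of these data known. All 37 had a p-value in both tables, and the lowest mean of a member was 394 normalised counts (Trib3, periplocin table). The authors' filter on the mean left 26 of them with an adjusted p for bufalin and all 37 for periplocin. The lowest mean of a gene with an adjusted p was 2259 normalised counts for bufalin and 0.684 for periplocin. Members left without one for bufalin include Herpud1 and Dnajc3, at means of 1847 and 1799. By role, 16 are targets of the transcription factor ATF4, 10 are chaperones or folding enzymes of the endoplasmic reticulum (ER), 2 serve ER-associated degradation (ERAD) and 9 are sensors or switches. The cells were H9c2, a wild type myoblast line of rat myocardium. They were left as control, treated with bufalin or treated with periplocin, both of them plant or toad steroids that block the sodium-potassium pump. Each of the 3 conditions had 3 libraries after pull-down with an antibody to N6-methyladenosine (m6A, a methyl mark on RNA) and 3 input libraries, 18 samples in all. The labels name neither dose nor time, nor do they tell separate cultures from repeats of 1 culture, so p-values measure only the spread between these libraries. Whether the expression comparisons used input or pull-down libraries is not stated, and their values are read here as RNA levels.

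In the integrated stress response, kinases sense stress such as unfolded protein, missing amino acids or low heme and phosphorylate the translation factor eIF2. Most translation then slows, while the mRNA of ATF4 is translated better, and ATF4 switches on genes of amino acid supply, of redox defence and of cell death. The unfolded protein response starts at the ER membrane with the sensors PERK, IRE1 and ATF6, and its later arms raise chaperones that fold secreted proteins. PERK belongs to both, so ATF4 targets report on eIF2 signalling from any source, and ER chaperones mostly on the load of the ER.

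The promoters of these genes were searched for DNA elements by which the classes are known, and those that hold one are shown. Such elements are the C/EBP-ATF element, which ATF4 binds with a C/EBP partner, and the ER stress element, read by ATF6 and XBP1. Sequences are the 250 bases before the start of the gene from RefSeq (build GRCr8, not the rn6 build of the measurements), found for 32 of the 37 genes and not for Pdia3, Pdia6, Manf, Ern1 and Atf6. Each is read along the strand of its gene, with matched elements in capitals. Of each class, the gene that held an element and had the lowest unadjusted p in either comparison is printed, at chr13:47129750-47129999 (+ strand), chr1:190645902-190646151 (- strand), chr3:38452766-38453015 (+ strand) and chr19:10614708-10614957 (- strand).
Ppp1r15b: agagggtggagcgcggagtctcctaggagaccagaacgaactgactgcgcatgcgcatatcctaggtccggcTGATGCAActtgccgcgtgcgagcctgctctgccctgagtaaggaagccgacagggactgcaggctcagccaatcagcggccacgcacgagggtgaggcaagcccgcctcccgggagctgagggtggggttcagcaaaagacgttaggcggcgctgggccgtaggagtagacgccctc
Nupr1: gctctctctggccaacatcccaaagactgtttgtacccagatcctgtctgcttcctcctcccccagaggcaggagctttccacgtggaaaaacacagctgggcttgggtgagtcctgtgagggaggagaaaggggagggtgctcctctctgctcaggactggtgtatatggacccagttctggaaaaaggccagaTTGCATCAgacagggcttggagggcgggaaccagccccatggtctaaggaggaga
Hspa5: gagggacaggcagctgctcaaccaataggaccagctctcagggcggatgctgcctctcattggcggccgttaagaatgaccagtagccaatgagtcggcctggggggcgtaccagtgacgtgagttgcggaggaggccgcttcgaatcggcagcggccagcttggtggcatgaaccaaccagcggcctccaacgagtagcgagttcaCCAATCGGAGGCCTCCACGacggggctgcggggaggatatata
Herpud1: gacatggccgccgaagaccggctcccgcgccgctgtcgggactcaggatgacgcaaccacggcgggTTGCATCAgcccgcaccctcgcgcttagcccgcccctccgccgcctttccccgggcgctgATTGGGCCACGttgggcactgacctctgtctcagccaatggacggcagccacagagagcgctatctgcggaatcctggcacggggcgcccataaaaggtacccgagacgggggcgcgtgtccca
Ppp1r15b and Nupr1 hold the C/EBP-ATF element, Hspa5 the ER stress element, and Herpud1 the C/EBP-ATF element and a second form of the ER stress element.

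The other matches are shown with up to 10 bases on either side, so that the spelling of each can be compared, C/EBP-ATF elements first and ER stress elements after them.
Chac1: ttctccgccgTTGCATCActcctgctag
Trib3: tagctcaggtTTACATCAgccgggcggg
Creld2: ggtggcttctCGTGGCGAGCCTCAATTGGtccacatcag
Dnajc3: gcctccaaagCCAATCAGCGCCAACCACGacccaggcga
Hsp90b1, far site: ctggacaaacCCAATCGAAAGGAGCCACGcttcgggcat
Hsp90b1, near site: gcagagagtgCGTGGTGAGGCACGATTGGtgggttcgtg
Xbp1: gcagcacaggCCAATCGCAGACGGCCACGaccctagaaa
The C/EBP-ATF element, searched as TGATGNAA on both strands of 300 bases (250 before and 50 after the start), was found in 5 of the 32 promoters: those of the ATF4 targets Trib3, Chac1 and Nupr1, of Herpud1 and of Ppp1r15b. It was held by 3.98% of all 33469 rat promoters given by RefSeq. The ER stress element, CCAAT and CCACG with 9 bases of any kind between them, was found in 4 of the 7 chaperones with a promoter (Hspa5, Hsp90b1, Dnajc3 and Creld2) and in Xbp1, and in 0 of 16 ATF4 targets, against 0.0657% of all promoters. Its second form, ATTGG and CCACG with 1 base between them, was found in Herpud1, against 0.0508%, and the unfolded protein response element TGACGTGG in 0 of the 32, against 0.595%. No 2 of these matches overlapped. The members' promoters were richer in G and C than the average, at a median of 61.8% against 51.2%. A match is a run of letters and not a measured binding site, and a missing match says only that these letters are not in this window.

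**Figure D1:**
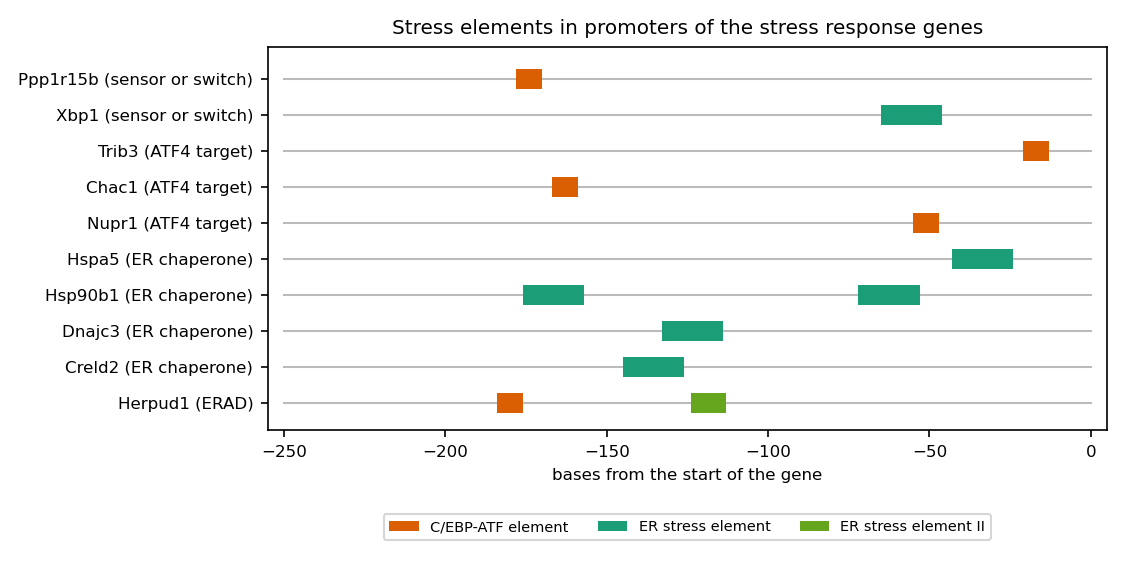
Position of each matched element in the 250 bases before the start of the gene, for the 10 promoters with a match; the x axis is in bases from the start and each bar is 1 match, to scale. C/EBP-ATF elements are seen in ATF4 targets, Ppp1r15b and Herpud1, and ER stress elements in chaperones and Xbp1.

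The phosphatase subunits that end the response were the only members to pass adjustment, and did so with periplocin alone. Some other members had intervals above 1 without passing, and these are given further below. With periplocin 2 of the 37 genes passed an adjusted p of 0.05, Ppp1r15a and Ppp1r15b, both higher than in control. Of the 12445 genes with an adjusted p 0.538% were called, 0.514% higher and 0.0241% lower. Ppp1r15a (GADD34), the stress-induced subunit that directs protein phosphatase 1 to eIF2, had a fitted mean of 4686 normalised counts in control and 8069 with periplocin. That is a rise to 1.72-fold, with a 95% Wald interval of 1.40 to 2.12. Ppp1r15b (CReP), the constitutive subunit of the same enzyme, had 6618 normalised counts in control and 7925 with periplocin, a smaller rise to 1.20-fold with an interval of 1.11 to 1.29. Their adjusted p-values in the authors' deposited table, by DESeq2 with Benjamini-Hochberg adjustment, were 0.000184 and 0.000410. The files give 1 value per gene and comparison and none per library, so overlap between groups could not be examined for any gene. In bulk RNA, fewer cells of a kind and less RNA per cell cannot be told apart.

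With bufalin none of the 26 members that had an adjusted p passed 0.05 by the authors' DESeq2 test, against 0.301% of the 3321 genes with one, and 6 of all 37 had an unadjusted p under 0.05. Ppp1r15a had 4837 normalised counts in control and 6647 with bufalin, or 1.37-fold with an interval of 1.01 to 1.88. Ppp1r15b stood at 1.09-fold, with an interval of 0.975 to 1.22. The member nearest the threshold was Nupr1, a small stress-induced chromatin protein that acts downstream of ATF4. Its fitted mean was 6739 normalised counts in control and 8766 with bufalin, or 1.30-fold with an interval of 1.13 to 1.50, and its adjusted p in the authors' deposited table was 0.0598 by DESeq2. With p-values adjusted over all 12876 genes that have one, Nupr1 was at 0.147 and no member passed, against 0.0932% of genes. The same adjustment with periplocin kept both subunits, against 0.519% of genes. With periplocin it stood at 1.09-fold with an interval of 0.972 to 1.23.

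**Figure D2:**
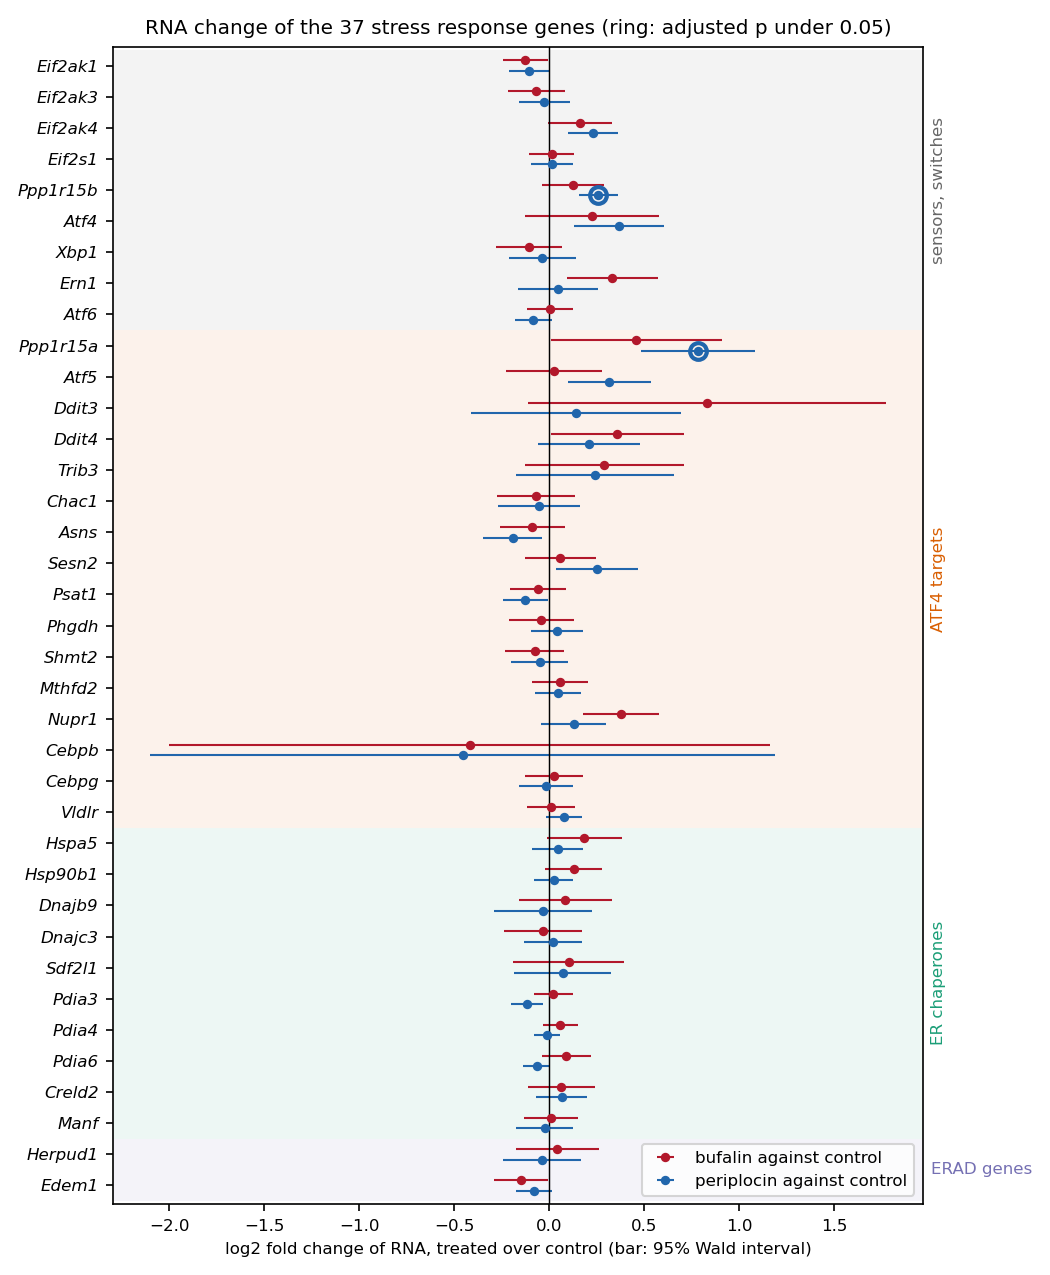
Log2 fold change of RNA, treated over control, of the 37 genes with bufalin (red) and periplocin (blue); points are the authors' estimates, bars 95% Wald intervals from their standard errors, shading the gene classes and rings an adjusted p under 0.05. Only Ppp1r15a and Ppp1r15b with periplocin are ringed, and the intervals of Cebpb and Ddit3 are the widest.

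Both comparisons used the same control libraries, so like values of a gene with the 2 compounds are not independent, and each is given side by side. Without adjustment, 6 members were higher and 4 lower with periplocin at p under 0.05, or 27.0% of the 37 against 6.25% of all genes with a p-value (4.09% higher, 2.15% lower). With bufalin 4 were higher and 2 lower, or 16.2% against 5.0% (3.04% higher, 1.96% lower). Apart from the called subunits, none of these members passed adjustment. The shares are a description, since the members were chosen with earlier results of these data known. The backgrounds also differ: every member had a mean of at least 394 normalised counts, and the share over all genes has no such floor. With periplocin the median standard error was 0.075 for the members and 0.106 for all genes with a mean of at least 10.

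Among the kinases that phosphorylate eIF2, Eif2ak4 (GCN2, the sensor of uncharged tRNA) came closest to the threshold with periplocin. It had 4540 normalised counts in control and 5333 with periplocin, or 1.17-fold (interval 1.07 to 1.29). In the authors' deposited table its adjusted p was 0.0786 by DESeq2. With bufalin it was at 1.12-fold (interval 0.995 to 1.26). Eif2ak1 (HRI), the heme-regulated kinase, stood below control at 0.918-fold with bufalin (interval 0.844 to 0.998) and 0.928-fold with periplocin (interval 0.864 to 0.998), and neither passed adjustment. Eif2ak3 (PERK), the kinase of the ER membrane, was at 0.955-fold and 0.984-fold, with intervals from 0.862 to 1.06 and from 0.897 to 1.08. Eif2s1, the phosphorylated subunit of eIF2, was at 1.01-fold with each compound, and its intervals ran from 0.929 to 1.10 and from 0.936 to 1.09. These values are read as RNA levels, and phosphorylation was not measured.

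Atf4 itself had 20530 normalised counts in control and 26524 with periplocin, or 1.29-fold with an interval of 1.10 to 1.52, and its adjusted p in the authors' deposited table was 0.186 by DESeq2. With bufalin Atf4 was at 1.17-fold, with an interval of 0.916 to 1.50. Of the other ER sensors, Ern1 (IRE1, the endonuclease that splices Xbp1 RNA) had 875 normalised counts in control and 1104 with bufalin. Its fold of 1.26 had an interval of 1.07 to 1.49, and its p was 0.658 when adjusted over all genes, as the authors' deposited table gives it no adjusted p. With periplocin Ern1 was at 1.03-fold (interval 0.892 to 1.19). Atf6, the sensor that becomes a transcription factor, had a log2 change of 0.01 with bufalin and of -0.08 with periplocin in the authors' deposited table. Xbp1, the transcription factor made from the spliced RNA, stood at 0.929-fold and 0.976-fold, and splicing cannot be read from these tables.

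The ATF4 targets had estimates on both sides of control. With periplocin 10 of the 16 lay above 0 and 6 below, from -0.46 to 0.78 on the log2 scale, and Ppp1r15a was the called member. With bufalin they again numbered 10 above and 6 below, from -0.42 to 0.83, with 0 of the 11 that had an adjusted p called and 3 of 16 at an unadjusted p under 0.05, against 0.301% and 5.0% of all genes. Atf5, a transcription factor under like translational control as ATF4, had 1373 normalised counts in control and 1711 with periplocin, or 1.25-fold with an interval of 1.07 to 1.45, and was at 1.02-fold with bufalin (interval 0.855 to 1.21). Sesn2, a stress-induced inhibitor of mTORC1 signalling, was at 1.19-fold with periplocin (interval 1.03 to 1.39) and 1.04-fold with bufalin. Ddit4 (REDD1), another inhibitor of mTORC1, had 1470 normalised counts in control and 1887 with bufalin, or 1.28-fold with an interval of 1.01 to 1.64. With periplocin it was at 1.16-fold (interval 0.960 to 1.39). Trib3, a pseudokinase that restrains ATF4, stood at 1.22-fold and 1.18-fold with intervals that include 1. None of these 4 genes passed adjustment.

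Ddit3 (CHOP), the transcription factor tied to death under lasting ER stress, had the highest estimate of the set with bufalin but also a large error. Its fitted mean was 5478 normalised counts in control and 9744 with bufalin, or 1.78-fold, with an interval of 0.925 to 3.42 that includes no change. With periplocin it was at 1.10-fold, with an interval of 0.753 to 1.62. The standard error of Ddit3 in the bufalin comparison was exceeded by 0.203% of the genes with a mean of at least 1000. Cebpb, a C/EBP partner of ATF4, was noisier still, at 0.749-fold with bufalin (interval 0.250 to 2.24) and 0.729-fold with periplocin (interval 0.233 to 2.28). In the bufalin comparison 0 genes with a mean of at least 1000 had a larger standard error, and in the periplocin comparison 0.0186% had. Worked out from those errors, the levels of Cebpb differed between libraries of a group by a coefficient of variation of 68.5% and 71.3% beyond counting noise. For Ddit3 it was 40.8% with bufalin and 23.8% with periplocin. The tables do not show which libraries carry this spread, and changes inside these intervals were not detectable for either gene.

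Enzymes of amino acid and folate metabolism make up 5 of the ATF4 targets, and none of them passed adjustment. Asns (asparagine synthetase) had 2364 normalised counts in control and 2069 with periplocin, or 0.875-fold with an interval of 0.786 to 0.974. Psat1, an aminotransferase of serine synthesis, was at 0.918-fold with periplocin (interval 0.845 to 0.997). Phgdh, the first enzyme of serine synthesis, and the mitochondrial folate enzymes Shmt2 and Mthfd2 were at 1.03-fold, 0.966-fold and 1.04-fold. With bufalin the 5 enzymes lay between 0.940-fold for Asns and 1.04-fold for Mthfd2, with 1 of 5 above 0 on the log2 scale, and with periplocin 2 of 5 lay above 0. Their median was -0.06 with bufalin and -0.05 with periplocin, and that of the other 11 ATF4 targets 0.06 and 0.14. The enzymes were set apart with these values known, so the contrast is a description. Chac1, which degrades glutathione, stood at 0.955-fold and 0.964-fold. Cebpg, which pairs with ATF4, stood at 1.02-fold and 0.991-fold. Vldlr, a lipoprotein receptor, stood at 1.01-fold and 1.06-fold. The intervals of these 3 genes all included 1.

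No ER chaperone passed adjustment, and the estimates of all 10 lay within 20% of control in both comparisons. For bufalin 7 of them had an adjusted p and for periplocin 10, against 0.301% and 0.538% of all genes called. Hspa5 (BiP), the Hsp70 chaperone of the ER lumen whose ER stress element is printed above, had 63581 normalised counts in control and 72361 with bufalin, or 1.14-fold with an interval of 0.991 to 1.31. With periplocin it was at 1.03-fold, with an interval of 0.941 to 1.13. Hsp90b1 (GRP94), the Hsp90 of the ER, was at 1.09-fold (interval 0.986 to 1.21) and 1.02-fold (interval 0.948 to 1.09). With bufalin 9 of the 10 lay above 0, only Dnajc3 below, and 0 had an unadjusted p under 0.05. With periplocin 5 lay above and 5 below 0, against 49.5% above, and 1 had an unadjusted p under 0.05, against 6.25%. Pdia3, a disulfide isomerase that works with the lectin chaperones, had 55615 normalised counts in control and 51345 with periplocin. At 0.923-fold (interval 0.871 to 0.979) it was the only chaperone with an unadjusted p under 0.05, and its adjusted p in the authors' deposited table was 0.378 by DESeq2.

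The isomerases Pdia4 and Pdia6 stood at 1.04-fold and 1.06-fold with bufalin and at 0.994-fold and 0.956-fold with periplocin. The Hsp40 cochaperones of BiP, Dnajb9 and Dnajc3, stood at 1.06-fold and 0.978-fold with bufalin and at 0.978-fold and 1.02-fold with periplocin. Sdf2l1, which acts with BiP and its cochaperones, was at 1.07-fold and 1.05-fold. Creld2, a stress-induced ER protein with isomerase activity, was at 1.05-fold with each compound. Manf, a secreted BiP-binding factor, was at 1.01-fold and 0.984-fold. For the abundant folding enzymes the intervals were narrow, and that of Pdia4 with periplocin ran from 0.948 to 1.04. In ERAD, Edem1, which directs misfolded glycoproteins to degradation, was at 0.904-fold with bufalin (interval 0.819 to 0.997) and 0.947-fold with periplocin (interval 0.888 to 1.01). Herpud1, a membrane component of the ERAD complex, was at 1.03-fold and 0.975-fold. Neither gene passed adjustment.

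The estimates of the ATF4 targets spread over a wider range than those of the chaperones. Cebpb was the low end in each comparison and Ddit3 the high end with bufalin, both with large errors. With bufalin the median log2 change was 0.03 for ATF4 targets and 0.08 for chaperones, a difference of -0.05. With periplocin it was 0.06 for ATF4 targets and 0.01 for chaperones, a difference of 0.06. The median over all genes with a mean of at least 10 was 0.00 in each comparison. With bufalin 6 of 16 ATF4 targets and 0 of 10 chaperones lay more than 20% from control, against 12.1% of all genes. With periplocin it was 3 of 16 and 0 of 10, against 12.4%. Of these ATF4 targets, Cebpb in each comparison and Ddit3 and Trib3 with bufalin had intervals that include no change. The median standard error with bufalin was 0.098 for ATF4 targets and 0.083 for chaperones, and with periplocin 0.098 and 0.068. Larger errors thus go with the wider range, and their part in it was not tested. At the high end with periplocin stood Ppp1r15a, which was called, with a fold interval of 1.40 to 2.12. Atf5, also more than 20% from control with periplocin, had an interval of 1.07 to 1.45 and did not pass adjustment. Genes are not replicates and values per library were not at hand, so the contrast of the classes is descriptive and has no test.

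**Figure D3:**
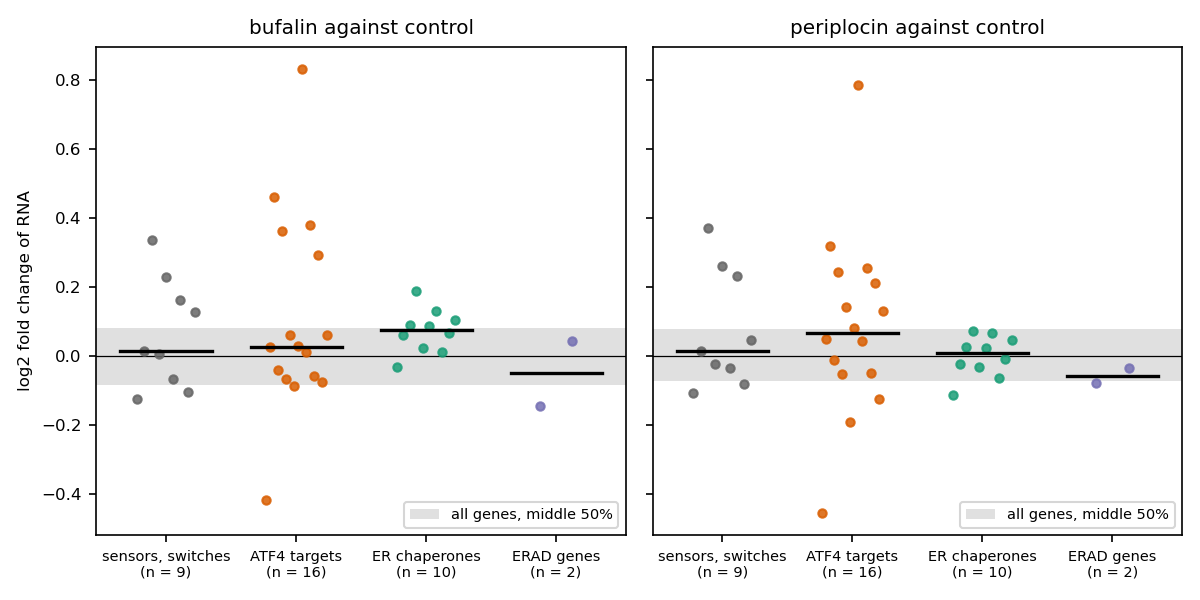
Log2 fold change of RNA of each member by class, with bufalin (left) and periplocin (right); points are genes, black bars the class medians, and the grey band holds the middle 50% of all genes with a mean of at least 10. ATF4 targets reach from -0.42 to 0.83 with bufalin and from -0.46 to 0.78 with periplocin, while chaperones stay within -0.12 to 0.19. Errors are not drawn, and the intervals of Cebpb, the lowest in each panel, and of Ddit3, the highest with bufalin, include 0.

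The compounds were then set against each other, with no known match of dose. They differ in their lactone ring, that of a bufadienolide in bufalin and of a cardenolide in periplocin, and periplocin alone carries sugars. In an approximate Wald test of the difference between the treated groups, built from the authors' standard errors, 0 of the 37 members passed an adjusted p of 0.05, against 0.396% of 10602 genes. At an unadjusted p under 0.05 there were 5 members, or 13.5%, against 6.34%. For Pdia6 the bufalin minus periplocin difference was 0.15 (log2, interval 0.05 to 0.26) with an adjusted p of 0.310 in this Wald test. For Pdia3 it was 0.14 (0.04 to 0.23), for Nupr1 0.25 (0.06 to 0.44), for Ern1 0.29 (0.06 to 0.51) and for Atf5 -0.29 (-0.53 to -0.06). For the called subunits it was -0.33 for Ppp1r15a, with an interval of -0.71 to 0.06, and -0.13 for Ppp1r15b, with an interval of -0.27 to 0.00. Neither was thus shown to differ between the compounds or to respond alike.

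By class, 8 of 10 chaperones lay higher with bufalin than with periplocin, at a median difference of 0.09, and 7 of 9 sensors and switches lay lower, at a median of -0.04. The ATF4 targets split into 9 higher and 7 lower at a median of 0.02. Over all genes 50.7% were higher with bufalin and the median was 0.00. For Cebpb the interval ran from -1.58 to 1.65 and for Ddit3 from -0.08 to 1.46, so for these genes only large differences could have been seen.

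**Figure D4:**
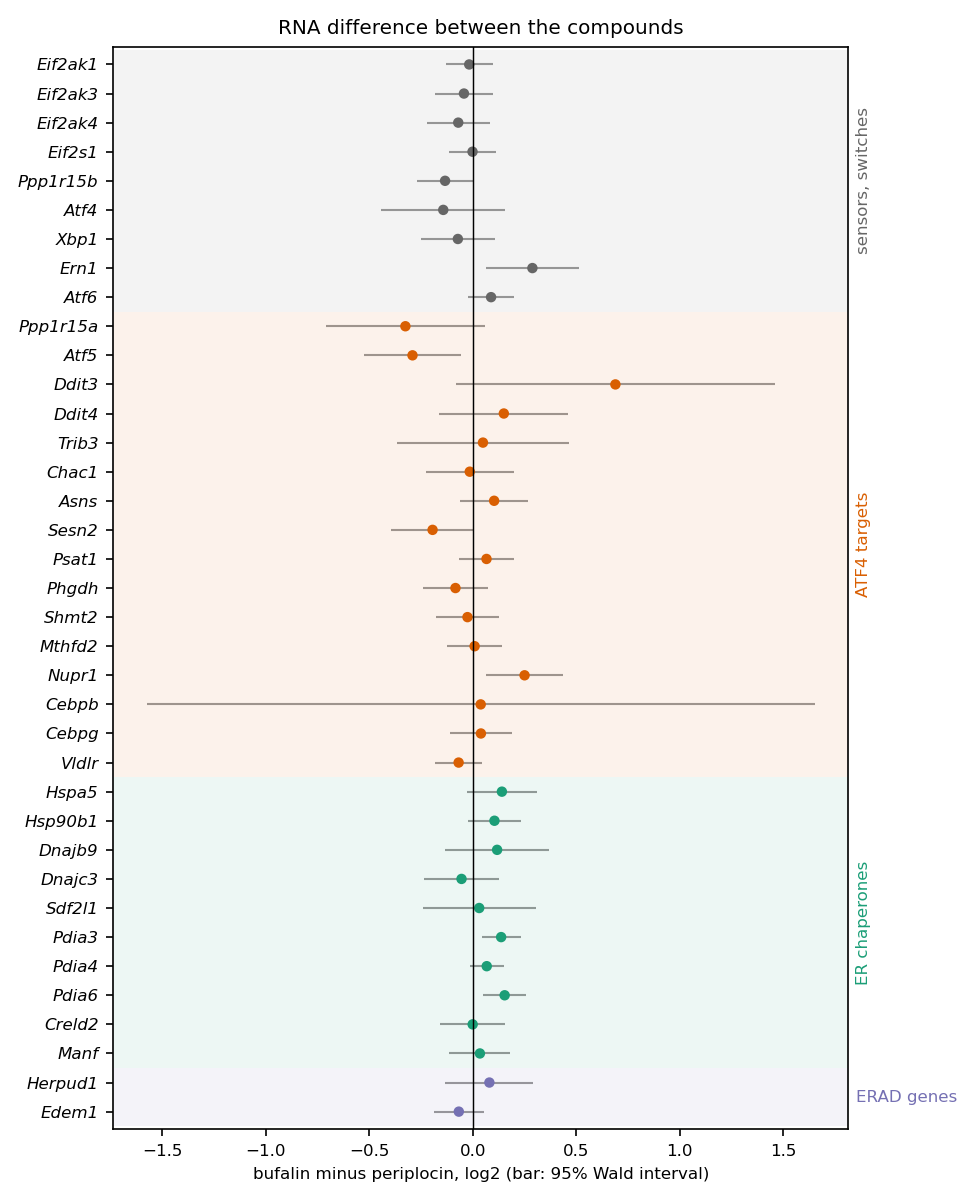
Bufalin minus periplocin difference of RNA (log2) for each of the 37 members, coloured by class, with 95% Wald intervals; values above 0 are higher with bufalin. No member passed adjustment, and the intervals of Pdia6, Pdia3, Nupr1, Ern1 and Atf5 do not cross 0.

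Further genes of the pathways were taken from lists of genes outside the set. Of 29 other ATF4 targets in the tables, 2 were called higher with periplocin and 0 lower, against 0.538% called over all genes. They were Slc38a2, a transporter of neutral amino acids, at 1.15-fold (interval 1.08 to 1.22), and Atf3, a stress transcription factor that is also an immediate early gene, at 2.03-fold with an adjusted p of 0.00263 in the authors' deposited table by DESeq2. The median of the 27 with a mean of at least 10 was -0.03, with 9 above and 18 below 0. At an unadjusted p under 0.05, 2 of the 29 were higher and 3 lower with periplocin, against 4.09% and 2.15% of all genes. With bufalin 0 of 16 with an adjusted p passed by the authors' DESeq2 test, against 0.301% of all genes, 2 of 28 had an unadjusted p under 0.05, against 5.0%, and the median was -0.02. With bufalin Atf3 stood at 1.54-fold (interval 1.07 to 2.21) and Slc38a2 at 0.958-fold (interval 0.871 to 1.05). Cth, an enzyme of cysteine synthesis, stood at 0.830-fold with periplocin (interval 0.700 to 0.983) without passing adjustment.

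Of 32 other ER folding and ERAD genes none was called with either compound by DESeq2, where 21 of them had an adjusted p for bufalin and 32 for periplocin. Over all genes 0.301% and 0.538% were called, so these counts of 0 say little about the list. Unadjusted, 2 were higher and 2 lower with bufalin, and 1 was higher and 5 lower with periplocin. Over all genes the shares were 3.04% higher and 1.96% lower with bufalin, and 4.09% higher and 2.15% lower with periplocin. Over both comparisons the lowest p in the list was that of Fkbp14, a prolyl isomerase of the ER, at 0.858-fold with periplocin (interval 0.782 to 0.942) and 0.901-fold with bufalin (interval 0.817 to 0.994). Mbtps1, a protease that activates ATF6, stood at 0.914-fold with periplocin (interval 0.860 to 0.971) and Ssr1, a subunit at the protein channel of the ER, at 0.897-fold (interval 0.833 to 0.967). With bufalin the log2 changes of Mbtps1 and Ssr1 both rounded to 0.00. The medians of this list were -0.01 with bufalin and -0.03 with periplocin. With bufalin 13 of the 32 lay above 0 and 19 below, and with periplocin 11 above and 21 below. Of 16 genes of the eIF2 complex and its regulators 0 were called with either compound, against the same 0.301% and 0.538%. Of these genes 9 had an adjusted p for bufalin and 16 for periplocin. At an unadjusted p under 0.05 there were 0 with bufalin, against 5.0% of all genes, and 3 with periplocin, against 6.25%. The medians were 0.00 and -0.02. The 3 were Gcn1, the activator of GCN2, at 1.06-fold, Ppp1cb, a catalytic subunit of protein phosphatase 1, at 0.931-fold (interval 0.882 to 0.984), and Oma1. The last of them, the mitochondrial protease that relays stress to the kinase HRI, stood at 0.656-fold (interval 0.496 to 0.867), with an adjusted p of 0.234 in the authors' deposited table by DESeq2. Of 9 genes of the mitochondrial unfolded protein response 0 were called with either compound, again against 0.301% and 0.538%. Among them 8 had an adjusted p for bufalin and 9 for periplocin. Htra2 (0.840-fold with bufalin) and Lonp1 (1.08-fold with periplocin) each had an unadjusted p under 0.05, against 5.0% and 6.25% of all genes. The medians of this list were 0.02 and 0.00.

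The m6A peak lists held 44 peaks on 24 of the 37 members for bufalin and 38 peaks on 24 for periplocin, of 9866 and 9170 peaks in all. Genes with a mean at or above that of the lowest member had a peak in 62.2% and 59.6% of cases, close to the members' 64.9% in each list. Peaks were called on 8 of 10 chaperones and 8 of 16 ATF4 targets in each list. The targets Trib3, Asns, Psat1, Phgdh, Shmt2, Nupr1 and Cebpb had none in either list, nor had Pdia6, Manf, Herpud1, Ern1 and Atf6. Mthfd2 had a peak in the bufalin list alone and Sesn2 in the periplocin list alone. A missing peak shows only that none was listed. Fold enrichment, the authors' value per peak and read as IP over input, had a median of 1.75 on members in the bufalin list and 1.88 in the periplocin list, beside 1.82 and 1.81 over all peaks.

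The most enriched member peak lay on Hspa5, at chr3:13841876-13842467 (rn6), with a fold enrichment of 3.25 in each list. Atf4 carried 1 peak at chr7:121482489-121482587, with 2.17 and 2.20. Eif2ak3 carried the most peaks, 5 in the bufalin list and 4 in the periplocin list, from 1.35 to 2.65. Ppp1r15b had 4 and 2 peaks, and Ppp1r15a 3 and 1. The bufalin peaks of Ppp1r15b at chr13:49934301-49934550 and chr13:49934650-49934849 both lay within the periplocin peak at chr13:49934202-49934849. Peak counts thus also depend on how a region was split, and a lower count does not show lost sites. The Ppp1r15a peak at chr1:101513282-101513727 in the bufalin list, with 2.08, overlapped the periplocin peak at chr1:101513430-101513529, with 2.18. The position of peaks within exons or untranslated regions was not analysed here. Several blocks, as where a peak runs over a splice junction, made up 22 of the 44 and 19 of the 38 member peaks, or 50% in each list, beside 44.3% and 44.4% of all peaks.

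**Figure D5:**
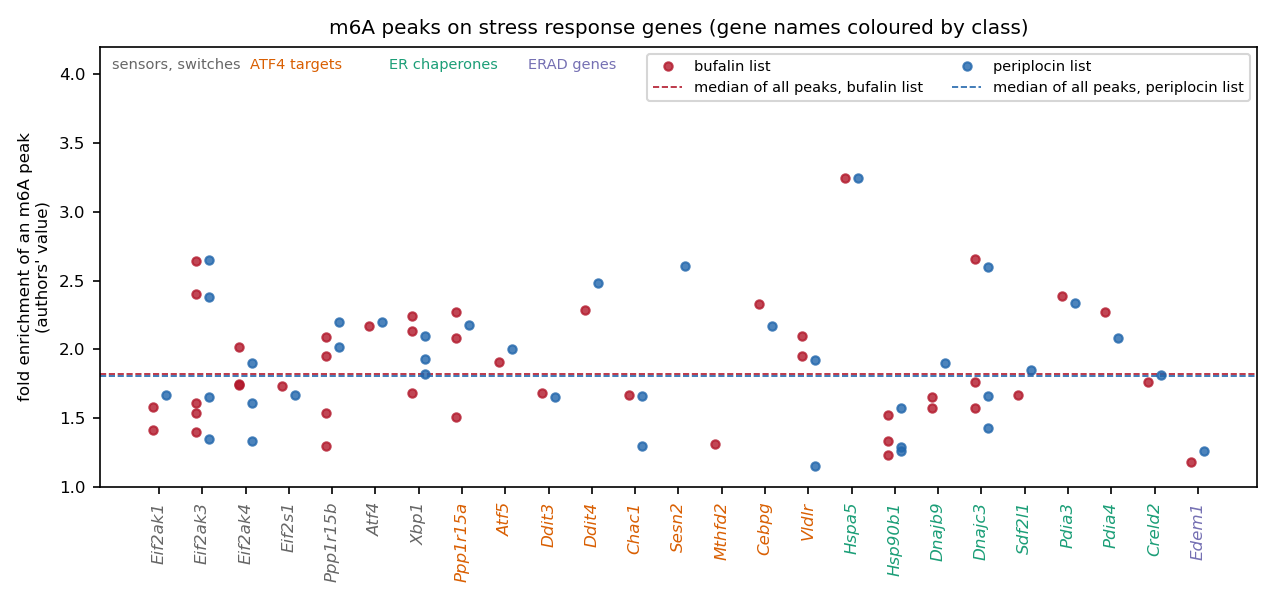
Fold enrichment of each m6A peak on the members with a peak (1 point per peak), in the bufalin list (red) and the periplocin list (blue); dashed lines are the medians of all peaks, 1.82 and 1.81. The peak of Hspa5 is the highest at 3.25 and that of Vldlr in the periplocin list the lowest at 1.15.

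No member peak was called: 0 of 44 in the bufalin list and 0 of 38 in the periplocin list had a deposited false discovery rate of the change under 0.05, against 0.0304% and 0.0436% of all peaks. With so few calls in all, these counts say little about the members. No source used here names the tool behind this test. At an unadjusted p under 0.05 there were 2 member peaks in each list, beside 3.04% and 3.37% of all peaks. The direction of the change is not stated and is read as treated over control. The lowest p was that of the Ppp1r15b peak at chr13:49934650-49934849 in the bufalin list, 8.32e-05 in the authors' deposited table with a false discovery rate of 0.204, and its log2 change was -0.11. The other was the Eif2ak3 peak at chr4:98697191-98701131, at 0.56 with p = 0.01 in the authors' deposited table. In the authors' deposited table for periplocin the Ddit3 peak stood at 0.12 with p = 0.00617 (chr7:70584199-70584740), and Sesn2 at 0.73 with p = 0.0417 (chr5:150685584-150685732). For the gene called at the RNA level with the largest rise, Ppp1r15a, the authors' deposited table gives the periplocin peak -0.16 with p = 0.378. Median changes were -0.06 and -0.04 over the member peaks and -0.02 and -0.01 over all peaks.

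Of 9 markers of myoblasts and striated muscle 7 had a control mean of at least 10, with Myod1 at 651 and Des at 970 normalised counts. Myog, at 11.2, was close to that limit, and Myf5 and Actc1 are listed at 0. Among cardiomyocyte markers Tnnt2 stood at 4407, Myh6 at 303 and Gata4 at 304, but Nppa and Ryr2 were under 10. Of endothelial, leukocyte and epithelial markers 2 of 5, 1 of 5 and 1 of 5 reached a control mean of 10, and Epcam, Cdh1 and Ptprc stood under it. The highest of each list were Vwf at 277, Cd68 at 63.6 and Krt8 at 1024, the last of them above Myod1 and Des. These control means are from the periplocin table. Summed levels of the myoblast and muscle markers went from 118994 in control to 129310 with bufalin and from 115289 to 119269 with periplocin, and those of the cardiomyocyte markers from 5337 to 4771 and from 5171 to 5514. Summed levels of the leukocyte markers went from 82.0 in control to 115 with bufalin and from 79.6 to 110 with periplocin, those of the endothelial markers from 312 to 277 and from 303 to 273, and those of the epithelial markers from 1057 to 1143 and from 1024 to 1110. In the bufalin comparison Vim (68248 in control) and Tpm2 (46221) made up most of the myoblast and muscle sum. Tnnt2 made up most of the cardiomyocyte sum and Krt8 nearly all of the epithelial sum. These sums therefore say little about the other markers. No marker was called, against 0.301% of all genes with bufalin and 0.538% with periplocin. For bufalin only 2 myoblast and muscle markers and 1 cardiomyocyte marker had an adjusted p, and 0 of the other lists. The remaining markers could thus not be called with bufalin. The part of these levels in the results was not tested.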

How the data were processed

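Libraries of H9c2 RNA, 3 IP and 3 input for each of control, bufalin and periplocin (18 samples), were grouped by their titles. The tools HISAT2, StringTie and DESeq and the build rn6 come from the submitters' processing notes, and no source used here gives versions. The deposited tables hold comparisons and no value per library, so depth per sample was not analysed here.

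The deposited signal per gene is a mean of counts scaled by size factors, as the authors' DESeq2 column names have it. The deposited log2 fold changes, their standard errors, the Wald score and the p-values are the authors' own, and an adjusted p is given for 26 of the 37 members in the bufalin table and for 37 in the other. The sign of the periplocin score is opposite to its fold change in all 12913 genes. Control means computed from both tables matched within 1% in 10602 of 10602 genes (mean of at least 10 in both, after an offset of 0.05 on the log2 scale) when both were read as treated over control, and in at most 1157 otherwise. Which library kind made these tables is not stated. The fold enrichment per deposited peak, a ratio, and the log10 values of its p and false discovery rate are the authors', per the file headers; the p-value is repeated in the score column. In the periplocin list the log10 values of the change are held as a score, since 1 peak lies beyond the usual range. No source used here names the peak caller or says whether libraries were pooled.

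Group means, folds with 95% Wald intervals, and the difference between compounds (checked on simulated data) were computed from these columns. That test takes 3 libraries per group and splits each deposited standard error into counting noise and a spread, taken as equal in control and treated groups. These spreads are used with the counting noise of the 2 treated groups. Spread among the shared control libraries can therefore enter the test. It is approximate. P-values were adjusted by Benjamini-Hochberg over all genes tested. The members, their classes and all lists were chosen with earlier results of these data known. All members are named; from other lists, called genes and up to 3 with the lowest p over both comparisons per list. Promoters are from RefSeq, printed whole for the called gene or that of the lowest p in each class among those with an element. Older names of genes were matched through the RefSeq table of GRCr8. Alternatives covered thresholds, count filters, centring, class borders, peak filters and strands. Tools were matplotlib 3.10.9, scipy 1.17.1, pandas 2.3.3, numpy 2.4.6 and Python 3.11.15.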

Additional observations from a re-analysis of the deposited data

How the results depend on the processing

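Of the other settings tried for counts and medians, 43 left them within their error or within 1.5 times the count, and the following did not. At an adjusted p under 0.1 in place of 0.05, 1 member was called with bufalin (Nupr1) in place of 0. With the given strand alone, 1 promoter (Ppp1r15b) in place of 5 held the C/EBP-ATF element. The 2 calls with periplocin held when p was adjusted over all genes with a p or over those with a mean of at least 10. With transcription factors left out and ERAD genes added, the difference of the class medians was -0.05 with bufalin and 0.07 with periplocin, and the chaperone median with periplocin was -0.02 in place of 0.01. Pairing peaks of the lists by an overlap of 1 base or by a longer overlap, set relative to the shorter peak, gave 35 pairs each. No paired analysis was possible because the files hold no values per library, and for the same reason leaving out a replicate was not run. For Cebpb and Ddit3 the spread between libraries, 68.5% and 40.8% with bufalin, limits what could be seen.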
